A study of Arabidopsis thaliana with 16 samples.

Results

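The comparison set untreated seedlings of rpn12a-1 (2 libraries) against untreated seedlings of Col-0, the wild type (4 libraries), among the 16 libraries of the series, and took as its members all nuclear genes of the count files: 33323 of 33602 genes. Of these, 21062 had counts high enough for a test. All seedlings of Arabidopsis thaliana were whole, 5 days old and grown in liquid culture under constant light, and neither group received the proteasome inhibitor MG132. The labels call rpn12a-1 an exon trap mutant, meaning that an inserted sequence interrupts the transcript of RPN12A. It is a single allele, and the accession in which it arose is not given in the sources used here. A pair of other groups served to show where rpn12a-1 differs: untreated rpn10-1, an exon trap mutant of another subunit (2 libraries), and Col-0 seedlings kept for 24 h in fresh medium with 100 µM MG132 (4 libraries). Untreated seedlings were harvested without that incubation, so drug, medium change and time cannot be told apart in the MG132 group.

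The 26S proteasome degrades proteins that carry ubiquitin chains. Its core particle is a barrel of alpha and beta rings that holds the protease sites, and a regulatory particle at either end recognises, unfolds and feeds in the substrate. RPN12 belongs to the lid, the part of the regulatory particle that strips ubiquitin from the substrate. In plants, loss of proteasome capacity is known to raise the transcripts of the proteasome's own subunits, a response for which NAC053 and NAC078 are known regulators.

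Total counts were 17502396 and 21762565 in the rpn12a-1 libraries and 10710362 to 15368235 in untreated Col-0. According to the labels, 8 libraries of the series, among them Col-0 replicates 3 and 4 and both rpn12a-1 libraries, include a technical replicate; these form the noted set, which entered the model as a term. Col-0 replicates 1 and 2 stood apart from 3 and 4 in some genes: the summed level of 17 phosphate starvation genes was 2482 and 3297 CPM (CPM, counts scaled to the size of each library) in the former and 1138 and 1063 CPM in the latter, against 851 and 1011 CPM in rpn12a-1. Nothing in the labels states that replicates were separate cultures, so each p-value reflects only the spread between these libraries, part of which may be technical. In whole seedlings, fewer cells of a type and less RNA per cell cannot be told apart. Of 17 tested root markers none was called (adjusted p under 0.05 by edgeR), and their summed level overlapped between the groups, 173 to 392 CPM in Col-0 and 347 and 482 CPM in rpn12a-1. Of 11 guard cell lineage markers, EPF2 was called lower, beside 2.25% of all nuclear genes. Its call was lost without Col-0 replicate 2, 3 or 4 (edgeR adjusted p from 0.0662 to 0.134). It was also lost without rpn12a-1 replicate 1 or 2 (log2 fold change -1.57 and -1.62). The sum of these 11 markers was 155 to 198 CPM in Col-0 and 136 and 158 CPM in rpn12a-1. Both mutant libraries lay below all Col-0 libraries in 6 of the 11 and above them in 1. The shares among all nuclear genes were 16.5% and 17%. The 6 tested seed storage markers summed to 3.80 to 6.94 CPM in Col-0 and 6.41 and 7.01 CPM in rpn12a-1. SEP3, the tested marker of flower organs, was at 0.868 to 1.98 CPM and 2.59 and 4.42 CPM. None of these was called in the main fit. With no filter on low counts, SEP3 was called higher (log2 fold change 1.25, edgeR adjusted p = 0.0103). The part of cell type shares in the results below was not tested.

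RPN12A itself (AT1G64520; chromosome 1, 23956269 to 23958461, plus strand, TAIR10.1) kept a transcript in the mutant. Its level was 92.1, 102, 73.6 and 74.3 CPM in Col-0 replicates 1 to 4 and 52.0 and 42.9 CPM in the rpn12a-1 libraries. Both mutant libraries lay below all 4 of Col-0. The fitted log2 fold change was -0.71 (SE 0.17, edgeR adjusted p = 0.0232). The call was lost without rpn12a-1 replicate 1 (edgeR adjusted p = 0.0658), without rpn12a-1 replicate 2 (edgeR adjusted p = 0.34) and without Col-0 replicate 2 (edgeR adjusted p = 0.0541), and it held against Col-0 replicates 3 and 4 alone (log2 fold change -0.64, edgeR adjusted p = 0.0321). The counts are per gene, so a transcript cut short by the insertion and a whole one cannot be told apart. RPN12B (AT5G42040), the second RPN12 gene, was close to the detection limit in both groups, with 25 reads in all in Col-0 and 33 in rpn12a-1, and was not called (log2 fold change 1.097, SE 0.45, edgeR adjusted p = 0.225).

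Proteasome genes rose together in rpn12a-1. Across all tested nuclear genes, 559 were called higher and 473 lower, which is 2.65% and 2.25% of them, and the median log2 fold change was -0.01. Against that background all 24 core particle genes were called higher, with a median log2 fold change of 1.77 and a range from 0.96 to 2.97. Of 32 regulatory particle genes 24 were higher, with a median of 1.33, and RPN12A was lower; against Col-0 replicates 3 and 4 alone, AT1G53780 was called lower as well. Of 25 assembly and associated factors 14 were higher and none was lower, with a median of 0.95. These counts held when single libraries were left out, at 24, 20 to 24 and 12 to 14. No part of the proteasome lists was chosen independently of earlier results of these data.

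**Figure D1:**
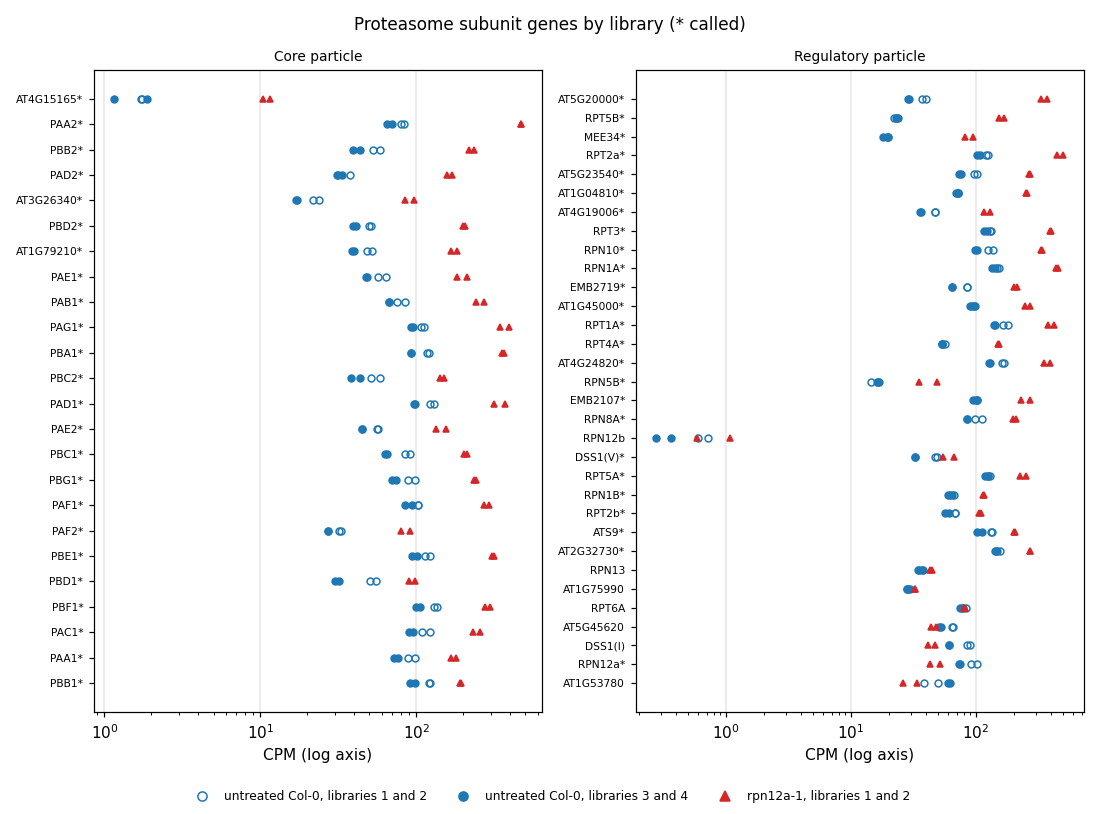
Levels of the 24 core particle genes and 32 regulatory particle genes, 1 row per gene ordered by fold change, on a log axis of CPM; open circles are Col-0 libraries 1 and 2, filled circles Col-0 libraries 3 and 4, triangles the 2 rpn12a-1 libraries, and an asterisk marks a called gene. In all 24 core particle genes both triangles lie to the right of all circles, while RPN12A is among the few genes of the regulatory particle in which they lie to the left.

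In the core particle, the alpha ring (13 genes) had a median log2 fold change of 1.90 and the beta ring (11 genes) of 1.67. PAA2 (AT2G05840), an alpha subunit, stood at 80.1, 83.7, 70.1 and 64.8 CPM in Col-0 and at 466 and 471 CPM in rpn12a-1. It rose by a log2 fold change of 2.74 (SE 0.15, edgeR adjusted p = 3.59e-08). PBB2, a beta subunit of the ring that holds the protease sites, stood at 52.9, 58.4, 43.6 and 39.1 CPM in Col-0 and at 216 and 234 CPM in rpn12a-1, a log2 fold change of 2.33 (SE 0.14, edgeR adjusted p = 7.84e-08). The groups were far apart in both genes, and the 2 mutant libraries differed little. The smallest rise of the core particle was in PBB1, the other gene for that subunit, at 122, 120, 97.4 and 91.6 CPM in Col-0 and 190 and 192 CPM in rpn12a-1 (log2 fold change 0.96, SE 0.11, edgeR adjusted p = 5.44e-05). The largest was in AT4G15165, which the reference describes as an Ntn hydrolase superfamily protein; it rose from 1.72, 1.74, 1.16 and 1.87 CPM to 10.4 and 11.5 CPM (log2 fold change 2.97, SE 0.21).

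Among the ATPases that form the base ring of the regulatory particle, 9 of 11 genes were higher. AT5G20000, described only as an AAA-type ATPase, was at 40, 37.1, 28.8 and 29.2 CPM in Col-0 and at 329 and 370 CPM in rpn12a-1, the largest rise of the list (log2 fold change 3.37, SE 0.19, edgeR adjusted p = 3.41e-08). RPT6A, the neighbouring gene on chromosome 5, was at 83.0, 78.6, 75.1 and 76.8 CPM in Col-0 against 80.6 and 81.2 CPM in rpn12a-1 (log2 fold change 0.03, SE 0.12, edgeR adjusted p = 0.946). The mutant libraries of RPT6A lay inside the Col-0 range and those of AT5G20000 far above it; these similar copies may share reads. RPT5B rose from 22.1, 23.4, 22.8 and 24.0 CPM to 154 and 169 CPM (log2 fold change 2.72, SE 0.18), and RPT5A by 0.85 (SE 0.16), a call lost without rpn12a-1 replicate 2 (edgeR adjusted p = 0.0763). AT1G53780, described as an ATPase of the complex, was the other member not called with all libraries: it was at 50.0, 38.2, 61.5 and 60.1 CPM in Col-0 and at 33.5 and 26.0 CPM in rpn12a-1 (log2 fold change -0.81, SE 0.31, edgeR adjusted p = 0.18). Both mutant libraries of AT1G53780 lay below all of Col-0, and against Col-0 replicates 3 and 4 alone it was called lower (log2 fold change -1.04, edgeR adjusted p = 0.0105), as it was on the 6 libraries of the comparison (edgeR adjusted p = 0.0135) and with no filter on low counts (edgeR adjusted p = 0.000939).

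Of the 21 remaining members of the regulatory particle 15 were higher. RPN10, a receptor for ubiquitin chains, stood at 126, 136, 101.4 and 98.6 CPM in Col-0 and at 329 and 340 CPM in rpn12a-1 (log2 fold change 1.55, SE 0.16, edgeR adjusted p = 1.33e-05). RPN1A, a scaffold of the base to which ubiquitin receptors dock, was at 153, 148, 143 and 136 CPM in Col-0 and at 450 and 440 CPM in rpn12a-1 (log2 fold change 1.53, SE 0.17). RPN13, another ubiquitin receptor, was not called (log2 fold change 0.32, SE 0.11, edgeR adjusted p = 0.143). The pair of DSS1 genes, small lid subunits, had opposite signs, a difference that was not tested: DSS1(V) was called higher (log2 fold change 0.87, SE 0.17, edgeR adjusted p = 0.006), a call lost without rpn12a-1 replicate 2 (edgeR adjusted p = 0.118), whereas DSS1(I) had a log2 fold change of -0.46 (SE 0.17, edgeR adjusted p = 0.169) and was called lower on the 6 libraries of the comparison (edgeR adjusted p = 0.0488). The call of DSS1(V) was also lost without the set term (edgeR adjusted p = 0.24). DSS1(I) lies near RPN12A on chromosome 1 (promoter at 24053924 to 24054173), in a stretch dense in calls, and the part of position was not tested. AT5G45620 and AT1G75990, described as a PCI domain and a PAM domain protein, were not called, at -0.19 and 0.12.

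In a list of 14 duplicated subunits set by hand, both genes mostly rose, but not by the same factor. Both were called higher in 12 of the 14. Other similar copies were not in this list and do not enter its counts. They include core particle genes, all of which were called higher, and RPT6A and AT5G20000, at 0.03 and 3.37. AT1G53780, AT5G45620 and AT1G75990, none of them called higher with all libraries, were not in it either. The log2 fold changes of the pair lay 1 or more apart in 6 of the 14. Because near-identical copies can share reads, the levels of each pair were also summed: the sum was above all Col-0 libraries in both mutant libraries for 12 pairs, and the ratio of mean sums ran from 4.06 for PAA1 (AT5G35590) and PAA2 down to 0.917 for the DSS1 pair and 0.562 for RPN12A and RPN12B.

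Promoter sequences of genes that rose and of one that did not are shown because the proteasome-related element, with the letters TGGGC, is the site reported for the NAC pair. The 250 bases before each annotated gene start were read from TAIR10.1 (RefSeq), TGGGC was searched on both strands, no other motif was searched, and a palindromic TGGGCCCA counted as 2 overlapping matches. Capitals mark the matches, and each sequence is written 5′ to 3′ on the strand of its gene. RPN1A (chr2:8858712-8858961, plus strand) and PBB2 (chr5:16250926-16251175, minus strand) were called higher and hold 4 and 3 matches. PAA2 (chr2:2233769-2234018, plus strand) was called higher and holds 0. AT1G53780 (chr1:20079023-20079272, minus strand) holds 3 and was not called with all libraries, but was called lower against Col-0 replicates 3 and 4 alone.
RPN1A: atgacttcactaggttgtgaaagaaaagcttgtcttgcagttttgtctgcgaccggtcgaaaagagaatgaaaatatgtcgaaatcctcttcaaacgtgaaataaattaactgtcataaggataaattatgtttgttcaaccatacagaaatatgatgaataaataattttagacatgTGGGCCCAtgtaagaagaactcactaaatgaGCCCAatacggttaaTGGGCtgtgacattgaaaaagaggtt
PBB2: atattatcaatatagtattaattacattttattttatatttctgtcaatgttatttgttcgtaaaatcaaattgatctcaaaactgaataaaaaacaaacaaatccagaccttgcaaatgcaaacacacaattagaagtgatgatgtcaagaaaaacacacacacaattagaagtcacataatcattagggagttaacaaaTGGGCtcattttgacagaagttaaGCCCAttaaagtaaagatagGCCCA
PAA2: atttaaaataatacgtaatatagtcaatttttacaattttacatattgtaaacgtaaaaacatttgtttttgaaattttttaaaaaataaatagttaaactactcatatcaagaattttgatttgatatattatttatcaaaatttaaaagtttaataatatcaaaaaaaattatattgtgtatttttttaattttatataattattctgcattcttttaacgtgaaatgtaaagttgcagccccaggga
AT1G53780: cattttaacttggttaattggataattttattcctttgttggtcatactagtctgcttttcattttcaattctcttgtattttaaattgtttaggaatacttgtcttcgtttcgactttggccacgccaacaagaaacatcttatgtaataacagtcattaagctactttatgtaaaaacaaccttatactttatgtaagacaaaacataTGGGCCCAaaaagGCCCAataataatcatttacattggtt

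At least 1 match lay in 27 of 56 core and regulatory particle promoters (48.2%), against 5327 of 21037 promoters of tested nuclear genes (25.3%). The share was 54.2% in the core particle, 43.8% in the regulatory particle and 48% in the assembly list. It was also 48% in the heat shock list, of which none was called higher, and 23.7% among all genes called higher. Among the core and regulatory genes, 25 of 48 called higher and 2 of 8 others held a match. The promoter of RPN12A held none. These are descriptions of letters, and binding was not measured.

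Among the assembly and associated factors, the reference symbol AtCDC48B (AT3G53230), a segregase ATPase of the CDC48 family that extracts ubiquitinated proteins, rose most. It was at 20.5, 17.0, 18.4 and 18.3 CPM in Col-0 and at 225 and 202 CPM in rpn12a-1 (log2 fold change 3.37, SE 0.21, edgeR adjusted p = 7.84e-08). CDC48 (AT3G09840) rose from 402 to 462 CPM in Col-0 to 1253 and 1219 CPM (log2 fold change 1.37, SE 0.22). PA200, an alternative activator that caps the core particle, rose from 71.5, 56.1, 74.8 and 64.5 CPM to 309 and 289 CPM (log2 fold change 2.03, SE 0.28, edgeR adjusted p = 0.000302). In all 3 genes the groups lay well apart. The genes for the maturation factor UMP1 (AT1G67250 and AT5G38650) and the proteasome-bound deubiquitinase UBP6 were also higher, at 1.45, 1.37 and 1.02. The 4 RAD23 genes, whose products carry ubiquitinated proteins to the proteasome, were not called, with log2 fold changes from 0.04 to 0.35.

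No change was called in the transcripts of the NAC pair. NAC053 was at 18.3, 16.1, 14.9 and 15.6 CPM in Col-0 and 16.6 and 15.8 CPM in rpn12a-1, and NAC078 (reference symbol NAC2) at 59.5 to 65.1 and 68.2 and 68.4 CPM. Neither was called (edgeR adjusted p = 0.987 and 0.79). None of 11 ubiquitin and ubiquitin-activating enzyme genes was called, with a median log2 fold change of 0.10; reads of near-identical polyubiquitin genes may be split. PMZ, a zinc finger gene of the AN1 type, was among the largest rises: it was at 0.924, 1.13, 1.01 and 0.622 CPM in Col-0 and at 52.1 and 73.1 CPM in rpn12a-1 (log2 fold change 6.18, SE 0.26, edgeR adjusted p = 1.84e-09). NBR1, a receptor for selective autophagy of ubiquitinated cargo, was the single autophagy gene of 28 called, beside 4.9% of all nuclear genes. It was at 169 to 208 CPM in Col-0 and 404 and 334 CPM in rpn12a-1 (log2 fold change 0.91, edgeR adjusted p = 0.021). Its call was lost without Col-0 replicate 3 or 4 (edgeR adjusted p = 0.0632 and 0.0868) and without either mutant library.

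**Figure D2:**
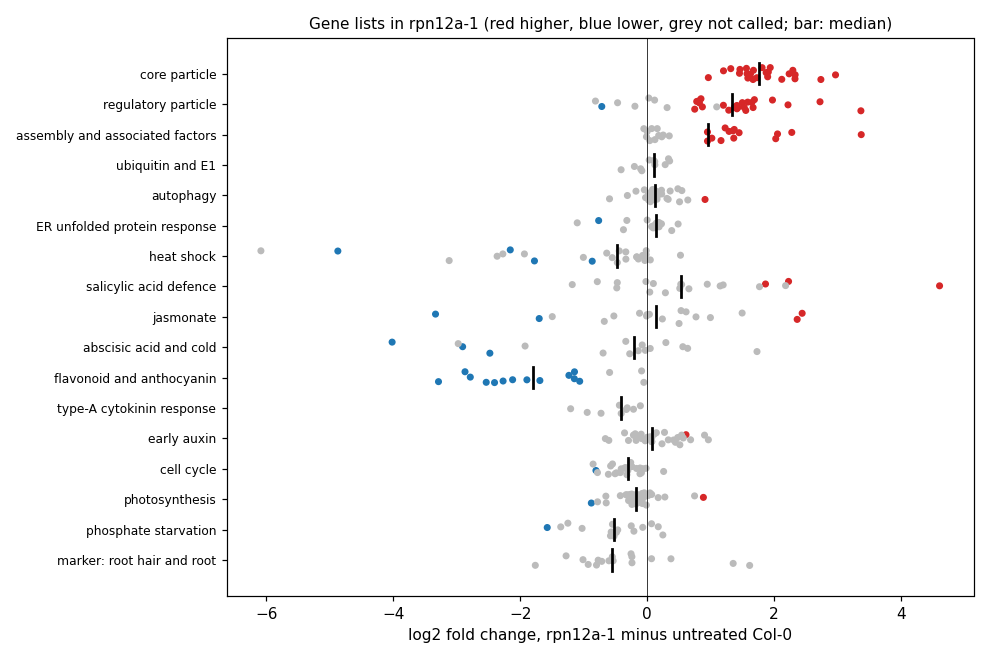
Log2 fold change of rpn12a-1 against untreated Col-0 (horizontal axis) for the tested members of 17 gene lists, 1 point per gene, red called higher, blue called lower, grey not called, with the median of each list as a black bar. The 3 proteasome lists lie to the right, with medians of 1.77, 1.33 and 0.95, and the flavonoid list lies to the left, with a median of -1.79.

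Flavonoid and anthocyanin genes fell. Of 16 tested members, 13 were called lower and none higher, with a median log2 fold change of -1.79, beside 2.25% of all nuclear genes called lower. TT4, the chalcone synthase that opens the pathway, was at 1056, 1206, 415 and 327 CPM in Col-0 and at 174 and 131 CPM in rpn12a-1 (log2 fold change -1.69, SE 0.38). DFR, which commits the pathway to anthocyanins, was at 59.8, 76.3, 47.8 and 42.1 CPM in Col-0 and at 7.88 and 6.26 CPM in rpn12a-1 (log2 fold change -2.78, SE 0.64). In the 13 genes called, both mutant libraries lay below every Col-0 library, and in TT4 Col-0 replicates 3 and 4 lay far below 1 and 2. UF3GT, a glycosyltransferase for anthocyanins, fell most, from 22.4, 22.3, 17.5 and 13.8 CPM to 2.06 and 1.65 CPM (log2 fold change -3.29, SE 0.49), and the regulator MYB75 (reference symbol PAP1) fell by 2.53. TT8, a regulator of the pathway, was not called (log2 fold change -0.09). The summed level of the list was 1740, 2045, 924 and 760 CPM in Col-0 replicates 1 to 4. In rpn12a-1 it was 445 and 368 CPM. Against Col-0 replicates 3 and 4 alone, the call of F3H (AT3G51240) was lost (log2 fold change -1.89, edgeR adjusted p = 0.0989). The count of 13 dropped to 3 without either rpn12a-1 replicate and to 8 without Col-0 replicate 3.

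No heat shock gene was called higher. Of 25 tested members, 4 were lower and none was higher, beside 2.25% and 2.65% of all nuclear genes, with a median log2 fold change of -0.47. HSP70 (AT3G12580), a stress-inducible cytosolic chaperone, was at 44.9, 49.6, 54.2 and 52.5 CPM in Col-0 and at 23.4 and 18.6 CPM in rpn12a-1 (log2 fold change -1.77, SE 0.31, edgeR adjusted p = 0.002). AT5G51440, a small heat shock gene, fell from 7.92, 7.79, 9.47 and 16 CPM to 3.41 and 2.02 CPM (log2 fold change -2.16, SE 0.35). Both mutant libraries lay below all of Col-0 in these genes. HSP23.6-MITO, a small heat shock gene of mitochondria, was near the detection limit, at 0.99 to 2.21 CPM in Col-0 and 0.118 and 0 CPM in rpn12a-1. AT5G48570, the other gene called lower, was at 6.29 and 6.30 CPM in rpn12a-1, between Col-0 replicates 1 and 2 (5.74 and 5.12 CPM) and 3 and 4 (11.4 and 11.3 CPM), and lost its call without either mutant library (edgeR adjusted p = 0.106 and 0.123) and without the set term (edgeR adjusted p = 0.707). The call for HSP70 was lost without rpn12a-1 replicate 2 (edgeR adjusted p = 0.0633) and without the set term (edgeR adjusted p = 0.178), and the count of 4 was 2 without that library.

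Cold and abscisic acid genes gave 3 lower members and none higher of 16, beside 2.25% and 2.65% of all nuclear genes. KIN2 was at 58.4, 55.8, 43.2 and 34.7 CPM in Col-0 and at 8.29 and 7.43 CPM in rpn12a-1 (log2 fold change -2.91, SE 0.50, edgeR adjusted p = 0.002), and its neighbour KIN1 and COR15A, all cold-induced genes, were the other 2; KIN1 and KIN2 are similar copies that may share reads. Without rpn12a-1 replicate 1 a single member was called, and without replicate 2 none. In the jasmonate list of 18, LOX2 and AOC2, enzymes of jasmonate synthesis, were lower and LOX4 and JAZ7 higher, 4 calls of 18 beside 4.9% of all nuclear genes. LOX2 was at 100.0, 151, 244 and 220 CPM in Col-0 and 19.0 and 22.8 CPM in rpn12a-1 (log2 fold change -3.33, SE 0.58), and its edgeR adjusted p was 0.0529 without rpn12a-1 replicate 1. LOX4 was high in 1 mutant library only, at 2.35 and 11.7 CPM against 1.31 to 3.38 CPM in Col-0, and its call was lost without replicate 2 (edgeR adjusted p = 0.353) and against Col-0 replicates 3 and 4 alone (edgeR adjusted p = 0.121). JAZ7 rested on 15 reads in Col-0 and 53 in rpn12a-1, and its call was lost without rpn12a-1 replicate 2 (edgeR adjusted p = 0.612) and without each Col-0 replicate (0.0523 to 0.105). The call of AOC2 was lost without either mutant library (edgeR adjusted p = 0.132 and 0.0855).

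Of 20 salicylic acid defence genes 3 were higher, beside 2.65% of all nuclear genes. FMO1, an enzyme that makes a signal of systemic resistance, was at 0.858, 0.41, 0.434 and 0.277 CPM in Col-0 and at 1.59 and 1.93 CPM in rpn12a-1, and the regulator CBP60G at 1.85 to 3.38 CPM and 4.12 and 9.78 CPM. PR1, the third, rested on 3 reads in all of Col-0 and 11 in rpn12a-1, a ratio per depth of 5.10 with an exact 95% interval from 1.35 to 28.5 that covers counting error only. Without rpn12a-1 replicate 2, none of the 3 was called, and against Col-0 replicates 3 and 4 alone only FMO1 was.

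Hormone and growth lists showed little that passed the test. Altered cytokinin response is a known trait of rpn12a-1 plants, and all 9 tested type-A response regulators, early targets of cytokinin, had a negative log2 fold change (median -0.41), but none was called with all libraries. Both mutant libraries lay below all Col-0 libraries in 5, beside 16.5% of all nuclear genes. RR5 had the smallest p: 34.98, 23.2, 27.5 and 25.0 CPM in Col-0 against 14.5 and 17.1 CPM in rpn12a-1 (log2 fold change -0.73, edgeR adjusted p = 0.094), and it was called lower against Col-0 replicates 3 and 4 alone (edgeR adjusted p = 0.0309). The cytokinin receptor gene WOL was called lower, from 41.8 to 58.2 CPM in Col-0 to 30.6 and 28.1 CPM (log2 fold change -0.87, SE 0.17, edgeR adjusted p = 0.007), a call lost without rpn12a-1 replicate 2 (edgeR adjusted p = 0.117). Of 27 cell cycle genes 1 was called lower, beside 2.25% of all nuclear genes. In 18 of them both mutant libraries lay below all Col-0 libraries, beside 16.5% of all nuclear genes, and the median log2 fold change was -0.30. The called one was CYCD1;1, a cyclin of the G1 phase, and its call was lost without either mutant library (edgeR adjusted p = 0.111 and 0.279), without Col-0 replicate 3 or 4 (0.0826 and 0.0953) and without the set term (0.232). Of 31 early auxin genes IAA7, a repressor of auxin response, was higher, and of 41 photosynthesis genes RBCS2B was higher and LHB1B1 lower. These counts stand beside 2.65% higher and 2.25% lower of all nuclear genes. RBCS2B and LHB1B1 belong to families of similar copies. Each of these 3 calls was lost without either mutant library and without Col-0 replicate 4 (edgeR adjusted p = 0.0611, 0.0891 and 0.0887). None of 19 expansins was called.

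The remaining lists gave at most 2 calls each, beside 4.9% of all nuclear genes. Of 19 genes that the endoplasmic reticulum uses against misfolded proteins, Hrd1B, a ubiquitin ligase, was lower. The Hrd1B gene lies 201 kb from RPN12A, where calls were dense, and had a log2 fold change of -0.74 in rpn10-1 against Col-0 (edgeR adjusted p = 0.00882). Of 22 antioxidant enzymes MDAR1 was higher and DHAR2 lower, both of which recycle ascorbate, and of 25 tau glutathione transferases ERD9 was lower. The calls of Hrd1B, DHAR2 and ERD9 were lost without either mutant library (edgeR adjusted p from 0.0636 to 0.268), and that of MDAR1 without rpn12a-1 replicate 2 (edgeR adjusted p = 0.137). Of 9 NAC genes and relatives NAC062, a membrane-bound factor, was higher (log2 fold change 0.81, edgeR adjusted p = 0.0357), but high in 1 library only, at 29.8 and 56.1 CPM against 21.8 to 32.2 CPM in Col-0; its call was lost without rpn12a-1 replicate 2 (edgeR adjusted p = 0.623) and against Col-0 replicates 3 and 4 alone (edgeR adjusted p = 0.119). Of 19 iron and copper uptake genes COPT2, a copper transporter, was higher, and of 17 phosphate starvation genes MGD2 was lower. COPT2 was not called against Col-0 replicates 3 and 4 alone (edgeR adjusted p = 0.0592), without the set term (0.113) or without rpn12a-1 replicate 1 (0.381), nor MGD2 without the set term (edgeR adjusted p = 0.0841) or without rpn12a-1 replicate 1 (0.2).

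**Figure D3:**
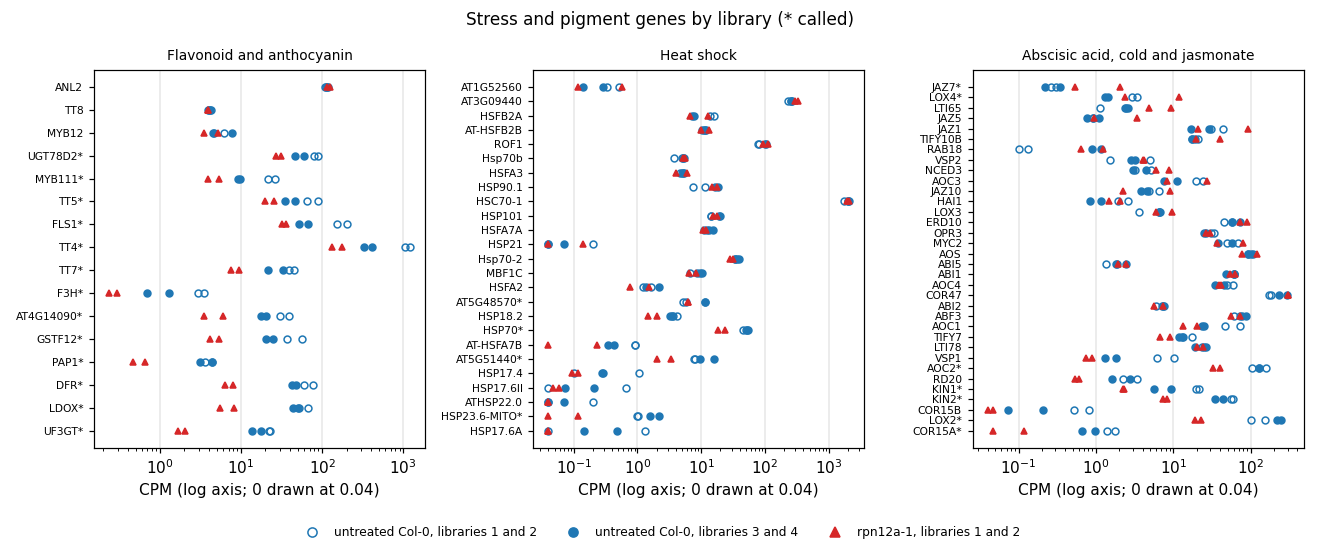
Levels of flavonoid and anthocyanin genes (left), heat shock genes (middle) and abscisic acid, cold and jasmonate genes (right), 1 row per gene, on a log axis of CPM with 0 drawn at 0.04; open circles are Col-0 libraries 1 and 2, filled circles Col-0 libraries 3 and 4, triangles the 2 rpn12a-1 libraries, and an asterisk marks a called gene. In the 13 called flavonoid genes the triangles lie left of all circles, while in LOX4 and JAZ7 the 2 triangles lie far apart.

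The largest changes outside these lists were close to on or off. ESP (AT1G54040), a protein that directs glucosinolate breakdown to epithionitriles and nitriles, was at 1.98, 3.59, 2.17 and 4.22 CPM in Col-0 and at 2568 and 2720 CPM in rpn12a-1 (log2 fold change 9.43, SE 0.39, edgeR adjusted p = 1.84e-09). In rpn10-1 it was at 4172 and 3514 CPM, and after 24 h of MG132 in Col-0 it was at 0.984 ± 0.453 CPM (SD, n = 4). ESP was thus high in all libraries of both mutants and near 0 in all Col-0 libraries compared here. AT4G22450, an uncharacterized protein, had 0 reads in all Col-0 libraries and 16.5 and 16.9 CPM in rpn12a-1, at least 297-fold higher than the floor of 3 reads over the group, and was at 17.9 and 18.3 CPM in rpn10-1. Among the falls, AT1G72840, a disease resistance protein of the TIR-NBS-LRR class, went from 12.7, 8.71, 17.0 and 11.7 CPM to 0 reads in both mutant libraries, at least 163-fold lower. MAF1, a MADS-box gene of the flowering repressor FLC family, fell from 34.1 to 38.3 CPM to 1.00 and 1.46 CPM (log2 fold change -4.68, SE 0.24), and TPX1, a thioredoxin-dependent peroxidase, from 220, 205, 162 and 140 CPM to 11.5 and 8.80 CPM (log2 fold change -3.92, SE 0.20). Both were low in rpn10-1 as well, at 1.37 and 2.51 CPM for MAF1 and 5.68 and 6.33 CPM for TPX1. On chromosome 1, TPX1 lies 601 kb from RPN12A, AT1G72840 3451 kb, ESP 3782 kb and MAF1 4997 kb, while AT4G22450 is on chromosome 4. Calls were dense around RPN12A, as given below, and the part of position in these changes was not tested. TPX1 differed between the mutants (log2 fold change 1.21, edgeR adjusted p = 0.0055); both mutants were set against the same Col-0 libraries, so the values stand side by side only.

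A few large rises were seen in rpn12a-1 and not in rpn10-1. The defensin-like genes, which encode small cysteine-rich secreted peptides, were among them: AT1G34047 was at 0.396 to 0.484 CPM in Col-0, at 312 and 145 CPM in rpn12a-1 and at 0.137 and 0 CPM in rpn10-1. AT5G33355 was at 0.205 to 0.622, at 248 and 113 and at 0.068 and 0 CPM, and AT2G36255 at 0 to 0.145, at 88.2 and 49.9 and at 0 CPM in both. In each of the 3 genes both rpn12a-1 libraries lay far above all others, the first above the second. Direct contrasts of rpn12a-1 with rpn10-1 were called for all 3 (edgeR adjusted p = 3.9e-06, 0.000185 and 0.000175). The genes were picked as large rises of the same rpn12a-1 libraries, so these p-values are no independent support. Of 24 tested genes whose description names a defensin or a low-molecular-weight cysteine-rich protein, 6 were higher and none lower, beside 2.65% and 2.25% of all nuclear genes. This family was picked after its values were seen. A gene near 0 in Col-0 was tested only if another group had enough counts, so among such genes a fall could hardly be called. QQS, a gene linked to starch content, was at 1.12, 1.13, 0.578 and 0.622 CPM in Col-0, at 52.9 and 37.4 CPM in rpn12a-1 and at 1.78 and 0.838 CPM in rpn10-1, and its direct contrast was called (log2 fold change 6.63, SE 0.44, edgeR adjusted p = 3.83e-07). QQS was picked as a large rise in the same way.

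Calls were not spread evenly along the chromosomes. On chromosome 1 within 250 kb of the start of RPN12A, 18 of 111 tested genes were called (16.2%, beside 4.9% of all nuclear genes). The share was 22% from 500 to 1000 kb, 11.2% from 2000 to 4000 kb and 2.94% beyond 16000 kb. AT1G64270, an uncharacterized protein whose gene lies 103 kb away, was among the largest falls: it was at 14.7, 11.3, 15.3 and 19.5 CPM in Col-0 and had 0 reads in both mutant libraries. By chromosome, the shares were 6.9% on chromosome 1, 3.2% on 2, 3.23% on 3, 4.15% on 4 and 5.64% on 5. A second stretch rich in calls, picked after the values were seen, lay on chromosome 5 from 9 to 18 Mb, with 133 of 880 genes called (15.1%), and on chromosome 1 from 21 to 28 Mb there were 201 of 1364 (14.7%). Outside both stretches 698 of 18818 genes were called (3.71%), 425 higher and 273 lower. In the contrast of the mutants with each other, 3.96% of the genes in the stretch of chromosome 1 were called and 8.75% of those in the stretch of chromosome 5, beside 5.96% overall. Sequence differences between the lines were not measured in these files, and their part in the calls was not tested.

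**Figure D4:**
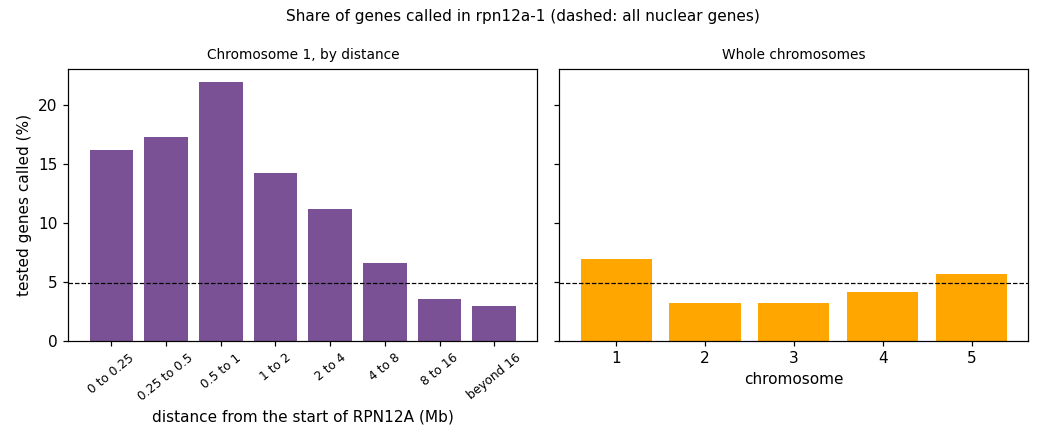
Percent of tested genes called in rpn12a-1 against untreated Col-0, on the left by distance from the start of RPN12A along chromosome 1 (bars, Mb) and on the right for whole chromosomes, with the 4.9% of all nuclear genes as a dashed line. The bars of the nearest 4 distance classes lie between 14.2% and 22%, and the farthest lies at 2.94%.

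Disease resistance genes were called lower in those stretches more often than the stretches' genes as a whole, 36.7% against 8.91%, a description without a test. Of 135 tested genes whose description names a disease resistance protein, most of them immune receptors of the NBS-LRR type, 21 were lower and 5 higher, beside 2.25% and 2.65% of all nuclear genes; 49 of the 135 lay in the 2 stretches and held 18 of the falls and 4 of the rises. Outside them, 3 of 86 were lower (3.49%, beside 1.45% of all genes there) and 1 higher. Receptor genes of this kind form clusters of similar copies, so reads may be split among them. The 56 core and regulatory particle genes, of which 48 were higher, lie on all 5 chromosomes. Some lie in the stretches, such as PBB2 on chromosome 5, and the part of position in their rise was not tested.

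Restricting the controls to Col-0 replicates 3 and 4, which share the note of both mutant libraries, gave 1271 called nuclear genes of 20002 tested, 618 higher and 653 lower, when fitted on these 4 libraries. Of the 1032 genes called with all 4 controls, 1003 could be tested there. All 1003 kept their direction, and 811 were called again, which is 78.6% of the 1032. Both mutant libraries and these controls were also part of the first fit, so the agreement in direction was largely fixed in advance. All 24 core particle genes were called higher in this check too. Leaving out 1 mutant library had more effect: 564 genes were called without rpn12a-1 replicate 1 and 495 without replicate 2.

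Compared directly with rpn10-1, 1255 nuclear genes were called (5.96%), 816 higher in rpn12a-1 (3.87%) and 439 lower (2.08%). The mutants lie in different library sets, so this contrast rests on the set effect. The model estimated that effect jointly from the untreated and the MG132-treated Col-0 libraries. RPN10 was higher in rpn12a-1 (log2 fold change 3.97, SE 0.22, edgeR adjusted p = 5.53e-08) and RPN12A lower (log2 fold change -1.56, SE 0.21, edgeR adjusted p = 0.000443), which are the genes their labels name. In the core particle 6 of 24 genes were called higher in rpn12a-1 and none lower, with a median log2 fold change of 0.46. PBD1 had the largest of these, at 89.1 and 98.4 CPM in rpn12a-1 and 76.3 and 70.3 CPM in rpn10-1 (log2 fold change 0.86, edgeR adjusted p = 0.012); it was at 50.7 and 54.9 CPM in Col-0 replicates 1 and 2 and at 30.1 and 31.7 CPM in 3 and 4. Without the set term none of the 24 was called, and leaving out rpn12a-1 replicate 1 or 2 left 1 and 0, and leaving out rpn10-1 replicate 1 left 2. No regulatory particle gene was called besides RPN10 and RPN12A, and of the 25 assembly factors none. For the phosphate starvation list, 9 of 17 were called higher in this contrast but 1 without the set term: MGD2, a galactolipid synthase gene induced by low phosphate, was at 4.35 and 8.04 CPM in rpn12a-1, 3.56 and 1.58 CPM in rpn10-1, 78.3 and 104 CPM in Col-0 replicates 1 and 2 and 15.3 and 15.6 CPM in 3 and 4.

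**Figure D5:**
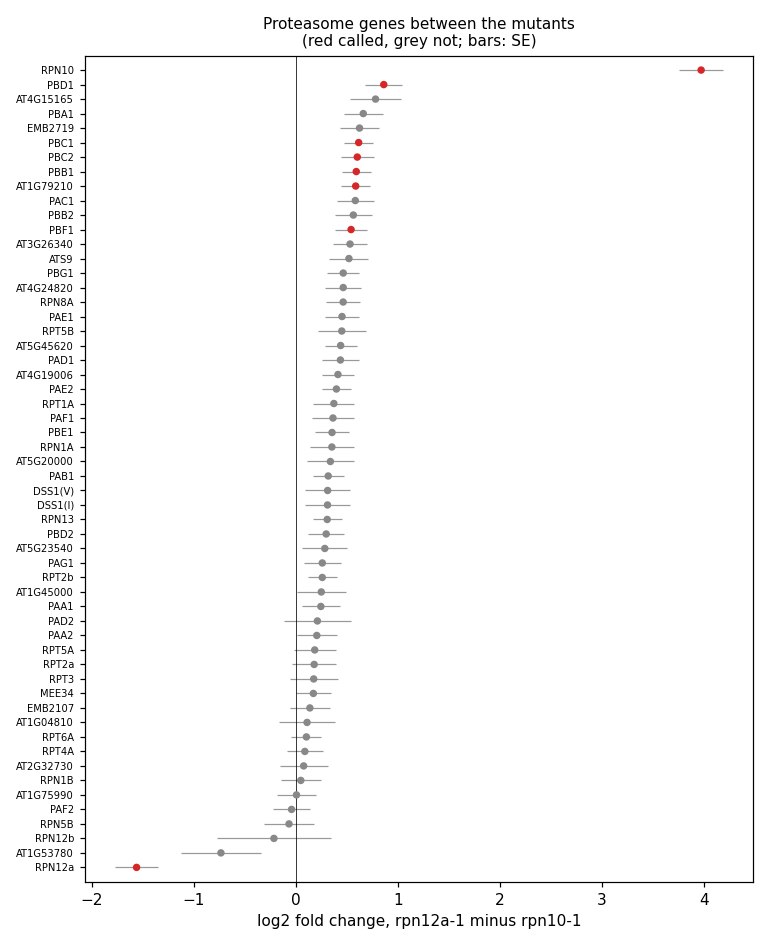
Log2 fold change of rpn12a-1 against rpn10-1 (horizontal axis) for the 56 core and regulatory particle genes, ordered by value, with the SE as bars; red genes were called and grey ones were not. RPN10 lies at 3.97 and RPN12A at -1.56, and the median of all 56 lies at 0.33.

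Against Col-0 after 24 h of MG132, rpn12a-1 differed in 3051 nuclear genes (14.5%), 1637 higher (7.77%) and 1414 lower (6.71%). In the proteasome lists, 6 of 24 core, 9 of 32 regulatory and 6 of 25 assembly genes were lower in rpn12a-1, RPN12A among them, and none was higher, with medians of -0.32, -0.38 and -0.36. PAA2 was at 466 and 471 CPM in rpn12a-1 and at 957 ± 133 CPM (SD, n = 4) under the inhibitor (log2 fold change -0.94, edgeR adjusted p = 0.00121). RPN10, at 329 and 340 CPM in the mutant and 309 ± 28.1 CPM under the inhibitor, was not called (edgeR adjusted p = 0.627). Heat shock genes were lower in rpn12a-1 in 13 of 25 and salicylic acid defence genes in 17 of 20, with no member higher in either list. HSP70 (AT3G12580) was at 23.4 and 18.6 CPM in rpn12a-1 and at a mean of 143 CPM under the inhibitor. Photosynthesis genes were higher in rpn12a-1 in 19 of 41, and early auxin genes in 12 of 31, with none lower. The flavonoid list, with 16 members, had no called gene in this contrast and a median log2 fold change of -0.10.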

How the data were processed

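RNA from whole seedlings was sequenced in 16 libraries. The authors deposited 1 table of raw counts per library, not normalized. Trimmomatic, TopHat, Bowtie2, HTSeq, edgeR and the TAIR10 build are named per the submitters' processing notes, without versions. The library kit named in the labels' protocols does not mark strand, so overlapping and antisense genes cannot be told apart.

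From these counts, genes were filtered with filterByExpr, scaled by TMM and fitted with edgeR 4.0.16 in R 4.3.3 over all 16 libraries, with group and library set as terms. A quasi-likelihood F-test, two-sided, called genes at a Benjamini-Hochberg adjusted p under 0.05 over all 21205 tested genes, 143 organelle genes included. Each SE was taken from F and the log2 fold change (the change over the root of F) and is approximate near 0. CPM values were computed from the counts with TMM. Gene names, positions and sequences come from TAIR10.1, which held 32835 of the 33602 identifiers; loci that it does not name were placed in lists by hand. The pipeline was tested on simulated counts. Intervals and floors cover counting error only.

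Members and gene lists were chosen with earlier results of these data known. Named were RPN12A, RPN12B, RPN10, NAC053 and NAC078, the 15 largest rises and falls among called genes of at least 5 CPM without overlap, for each list the members with the smallest p (at most 4), and called genes nearest RPN12A. The text gives a part of these. Other genes were picked after their values were seen, to show the ends of a list. Within rpn12a-1 and within untreated Col-0, no library repeated another: chi-square per degree of freedom was 12.1 and 14.2 to 43.7. The rpn10-1 and MG132 libraries were not checked in this way. Alternatives included DESeq2 1.42.0.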

Additional observations from a re-analysis of the deposited data

Results flagged for a closer look

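In 113 named genes, 1 of the 4 untreated Col-0 libraries was checked for lying far from the other 3, and 5 genes stood out. That count is near the share of about 1 in 20 that chance gives. AT2G15160 had 0.0692 CPM in replicate 4, which is 1 read, and 0 in the others. AT3G53970, described as proteasome inhibitor-like, had 27.7 CPM in replicate 4 and 32.5 to 33.4 CPM in the others. PR1 had 0.198 CPM in replicate 1, also a few reads only, and 0 in the others. RBCS2B had 3320 CPM in replicate 2 and 2170 to 2240 CPM in the others. COPT2 had 7 CPM in replicate 1 and 4 to 4.43 CPM in the others. The cause was not tested.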

How the results depend on the processing

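The count of 1032 genes called against untreated Col-0 (559 higher, 473 lower) became 1906 (973 and 933) with no low-count filter. With 1 library left out it ran from 495 to 896 (310 to 496 higher, 185 to 404 lower). Leaving out the stretches of chromosomes 1 and 5, chosen after seeing the data, left 273 lower. Leaving out genes within 2 Mb of RPN12A gave 905, no set term 893, DESeq2 1373 and DESeq2 size factors in edgeR 1036. The 1255 genes called against rpn10-1 became 777 with no set term, 2034 with DESeq2 and 2884 with no filter, and 474 to 1707 with 1 library left out (511 and 474 without rpn12a-1 replicates 1 and 2, 719 and 1707 without those of rpn10-1). The 3051 called against 24 h of MG132 ran from 1335 to 3573 with 1 library left out, the lowest being 1335 and 1386 without rpn12a-1 replicates 1 and 2. With the replicate number as a block in place of the set term, 2123 genes were called against Col-0 (1020 higher, 1103 lower), 909 against rpn10-1 and 4083 against 24 h of MG132; the numbers do not pair the samples (r = 0.103 between the differences of replicates 1 and 2 in rpn12a-1 and Col-0, across 21205 genes). The block also called 12 phosphate starvation genes lower, against 1. The causes were not tested.

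Of 101 called genes checked singly, 57 kept their call under all 15 alternatives that gave a value. AT5G48570 went from a fall to 0.24 with the replicate block. Values near 0 changed sign: RPT6A (AT5G19990) ranged from -0.0131 to 0.0531 with 1 library left out, and NAC053 (AT3G10500) from -0.0839 to 0.0416. NAC053 was at 0.0836 against Col-0 replicates 3 and 4 alone, 0.102 with the spread from the noted set, 0.0882 on the 6 libraries, 9.372e-05 with no filter and 0.0080 with the block. With 2 mutant libraries, a call rests on a pair of values.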
